A study of Homo sapiens with 24 samples.

Results

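The genes described here encode the machinery that moves newly made secretory and membrane proteins into the endoplasmic reticulum (ER) and carries them on to the Golgi apparatus. They were chosen by symbol, complex by complex, and all 44 were found among the 60564 rows of the deposited expression table. They comprise 6 genes of the SEC61 channel and its partners, 5 of signal peptidase, 4 of the translocon-associated (SSR) complex, 7 of the signal recognition particle (SRP) and its receptor, 12 of the COPII coat and its cargo machinery, 7 of the COPI coat and 3 KDEL receptors. RNA had been sequenced from the human neuroblastoma lines SK-N-BE(2) and SH-SY5Y, with 3 libraries in each of 8 groups. Each line carried a lentiviral short hairpin RNA against NDUFS6, the empty vector of that construct, a lentiviral full-length NDUFS6 coding sequence, or the empty vector of that one. All groups had been selected with puromycin after infection, and all 24 libraries had the same batch entry in the labels. NDUFS6 is a subunit of mitochondrial respiratory complex I, and the study asked what it does in neuroblastoma cells. The labels describe biological replicates without stating whether each came from an infection of its own, and p-values therefore refer to the variation among the libraries at hand.

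A nascent secretory protein is recognised by its signal sequence when SRP binds it on the ribosome and docks it on the SRP receptor of the ER membrane. The chain then enters the SEC61 channel, its signal sequence is cut off by signal peptidase, and the SSR complex assists the passage of some substrates. Folded cargo is packed into COPII vesicles that bud from the ER, while COPI vesicles bring escaped ER proteins and cargo receptors back, with KDEL receptors binding the retrieval signal of soluble ER proteins. Secretory cells such as plasma cells make large amounts of this machinery, and the transcription factors of the unfolded protein response, ATF6 and XBP1, are known to act on many of its genes.

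Expression was deposited as FPKM (fragments per kilobase of transcript, scaled to the mapped fragments of the library), a unit per length, so levels can be set side by side between genes. All 44 genes had at least 1 FPKM in at least 3 libraries, the condition for testing, and only KDELR3 was under 1 FPKM in any library. Over the 24 libraries, KDELR3 had the lowest mean (2.15 FPKM) and SRP9 the highest (152 FPKM), with a median of 18.8 FPKM over the 44 genes. Differences are given as log2(FPKM + 1), construct minus its own empty vector, from a limma fit of all 24 libraries, and calls were made at a two-sided limma p under 0.05 after Benjamini-Hochberg adjustment over all tested genes.

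NDUFS6 itself followed the labels. It had 1.09, 1.61 and 1.3 FPKM in SK-N-BE(2) knockdown, against 9.29, 12.2 and 11.9 FPKM in its empty vector libraries (log2 difference -2.38, limma adjusted p = 1.35e-12). In SH-SY5Y knockdown it had 3.11, 3.98 and 4.98 FPKM, against 11.2, 11.1 and 12.1 FPKM in the controls (-1.33, limma adjusted p = 7.29e-09). Overexpression gave 214, 211 and 199 FPKM in SH-SY5Y, against 10.2, 11.5 and 11.2 FPKM in its controls, but only 14.9, 17.8 and 19.0 FPKM in SK-N-BE(2), against 11.8, 13.9 and 12.7 FPKM in its controls. The SK-N-BE(2) overexpression difference (log2 0.39, limma adjusted p = 0.017) was lost when any of 4 of its 6 libraries was left out: without overexpression library 2 or 3 the limma adjusted p was 0.0658 or 0.0834, and without control library 1 or 3 it was 0.0737 or 0.0506. The sum of FPKM per library lay between 249708 and 276091, and between 12607 and 14018 genes reached 1 FPKM in a library. The number of reads is not known. The adrenergic neuroblastoma markers were present in every group, at a summed 263 to 340 FPKM in SK-N-BE(2) knockdown against 561 to 572 FPKM in its controls, and at 611 to 633 FPKM in SH-SY5Y knockdown, where TH was listed at 0, against 762 to 767 FPKM in its controls.

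Promoter sequences are given because members of the same family changed unequally. Of the 44 genes, 41 had a promoter (250 bases before to 50 after the start) in the RefSeq table of GRCh38.p14, in which KDELR2, SPCS1 and SEC24D had no entry. The 8-base core of the unfolded protein response element, TGACGTGG on either strand, lay in 9 of the 41 promoters (22.0%), against 0.795% of all 27305 promoters in the table and 0.975% of the 10054 promoters of tested genes. The 9 were those of SEC62, SRP19, SEC16A, SEC23A, SEC24A, COPA, COPB1, COPB2 and KDELR3. The 250 bases before the start are printed for SEC24A, SRP19 and KDELR3, which hold the element there, and for SEC24B and KDELR1, family members of SEC24A and KDELR3 that do not hold it. These 5 were picked after their values were known. In the SEC23 family, not printed, SEC23A holds the element at -4 to 4 and SEC23B does not hold it. The sequences run 5′ to 3′ along the gene, and capitals mark the element, which reads CCACGTCA where it lies on the other strand.
SEC24A (GRCh38.p14 chr5:134648535-134648784, plus strand): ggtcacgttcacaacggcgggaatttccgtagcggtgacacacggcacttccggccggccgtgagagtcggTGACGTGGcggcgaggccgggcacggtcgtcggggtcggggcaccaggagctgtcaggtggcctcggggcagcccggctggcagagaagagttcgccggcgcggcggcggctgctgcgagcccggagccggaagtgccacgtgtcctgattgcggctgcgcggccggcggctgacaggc
SEC24B (GRCh38.p14 chr4:109433565-109433814, plus strand): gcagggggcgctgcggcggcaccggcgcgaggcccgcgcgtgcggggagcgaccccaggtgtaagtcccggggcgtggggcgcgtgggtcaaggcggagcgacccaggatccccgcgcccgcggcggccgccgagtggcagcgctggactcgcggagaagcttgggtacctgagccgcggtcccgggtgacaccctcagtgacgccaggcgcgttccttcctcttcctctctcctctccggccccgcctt
SRP19 (GRCh38.p14 chr5:112861037-112861286, plus strand): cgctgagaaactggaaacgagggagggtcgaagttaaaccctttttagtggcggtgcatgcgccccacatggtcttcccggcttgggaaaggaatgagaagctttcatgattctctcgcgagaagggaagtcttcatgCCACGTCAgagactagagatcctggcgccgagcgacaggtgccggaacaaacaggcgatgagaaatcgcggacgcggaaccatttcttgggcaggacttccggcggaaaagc
KDELR3 (GRCh38.p14 chr22:38467846-38468095, plus strand): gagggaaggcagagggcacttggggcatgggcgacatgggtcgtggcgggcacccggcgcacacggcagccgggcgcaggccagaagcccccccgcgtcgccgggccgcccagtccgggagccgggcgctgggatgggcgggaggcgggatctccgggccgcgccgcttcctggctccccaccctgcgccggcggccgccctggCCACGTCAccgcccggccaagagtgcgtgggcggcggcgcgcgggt
KDELR1 (GRCh38.p14 chr19:48391552-48391801, minus strand): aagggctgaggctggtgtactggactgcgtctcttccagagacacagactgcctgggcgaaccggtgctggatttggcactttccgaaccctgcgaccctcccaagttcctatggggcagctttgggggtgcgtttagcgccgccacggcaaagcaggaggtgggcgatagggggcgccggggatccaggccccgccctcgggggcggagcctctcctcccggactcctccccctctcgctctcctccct
Counted from the start, the element lay at -179 to -172 in SEC24A, -112 to -105 in SRP19 and -46 to -39 in KDELR3. Read from the other strand it holds CCACG, the part of the ER stress response element that ATF6 binds, so the motifs overlap. CCACG on either strand was present in 34 of the 41 promoters (82.9%), against 37.9% of all promoters and 50.1% of those of tested genes. The ER stress response element (CCAAT, 9 bases, CCACG, either strand) was found in 0 of 41, against 0.0806% of all promoters, and its second form (ATTGG, 1 base, CCACG) in 0 of 41, against 0.0549%. A match describes the letters in this window and is not a binding site.

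NDUFS6 knockdown in SK-N-BE(2) came with higher transcript levels across most of this machinery. Of the 44 genes, 31 rose and 5 fell, while 27.4% of all tested genes were called higher and 28.3% lower. The median log2 difference was 0.34 over the 44 genes and -0.01 over all tested genes. The 8 genes not called lay between -0.05 and 0.15. The summed level of the COPII genes was 189 ± 16.8 FPKM in knockdown against 137 ± 0.733 FPKM in controls, that of the COPI genes 269 ± 20.7 against 193 ± 2.42 FPKM, that of the SEC61 genes 168 ± 17.9 against 109 ± 3.05 FPKM and that of the SSR genes 142 ± 16.2 against 93.2 ± 0.115 FPKM (SD, n = 3 each). The summed level of the SRP genes was 239 ± 9.58 FPKM in knockdown against 317 ± 1.58 FPKM in controls, of which SRP9 alone averaged 98.4 FPKM in knockdown and 173 FPKM in controls, while 3 of the 7 rose, 3 fell and their median log2 difference was 0.02. In bulk RNA, more or fewer cells of a kind and more or less RNA per cell cannot be told apart. Leaving out any 1 library of the comparison gave 30 to 32 genes higher and 4 to 5 lower. Markers of other cell states moved alongside. The adrenergic markers had the lower sum given above, with 7 of the 8 lower on average and TH higher, at 55.9 FPKM in knockdown against 29 FPKM in controls. The 6 mesenchymal markers, of which 4 averaged at least 1 FPKM in knockdown and 5 in controls, summed to 253 to 273 FPKM in knockdown against 200 to 203 FPKM in controls. VIM gave most of that sum (235 FPKM in knockdown against 182 FPKM in controls), SNAI2 was also higher, and CD44 (1.69 against 7.26 FPKM) and YAP1 (0.578 against 1.98 FPKM) had lower means in knockdown. The 6 fibroblast and stroma markers, 5 of them at 1 FPKM or more in both groups, summed to 139 to 161 FPKM in knockdown against 119 to 125 FPKM in controls, with COL3A1 (49.2 against 16.4 FPKM) and COL1A1 higher and DCN, LUM and PDGFRB lower on average. The part of these states in the results was not tested. The 4 plasma cell markers, of a type rich in secretory machinery, summed to 7.26 to 8.53 FPKM in knockdown against 18.4 to 19.8 FPKM in controls, nearly all of it SDC1, and TNFRSF17 was listed at 0.

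**Figure D1:**
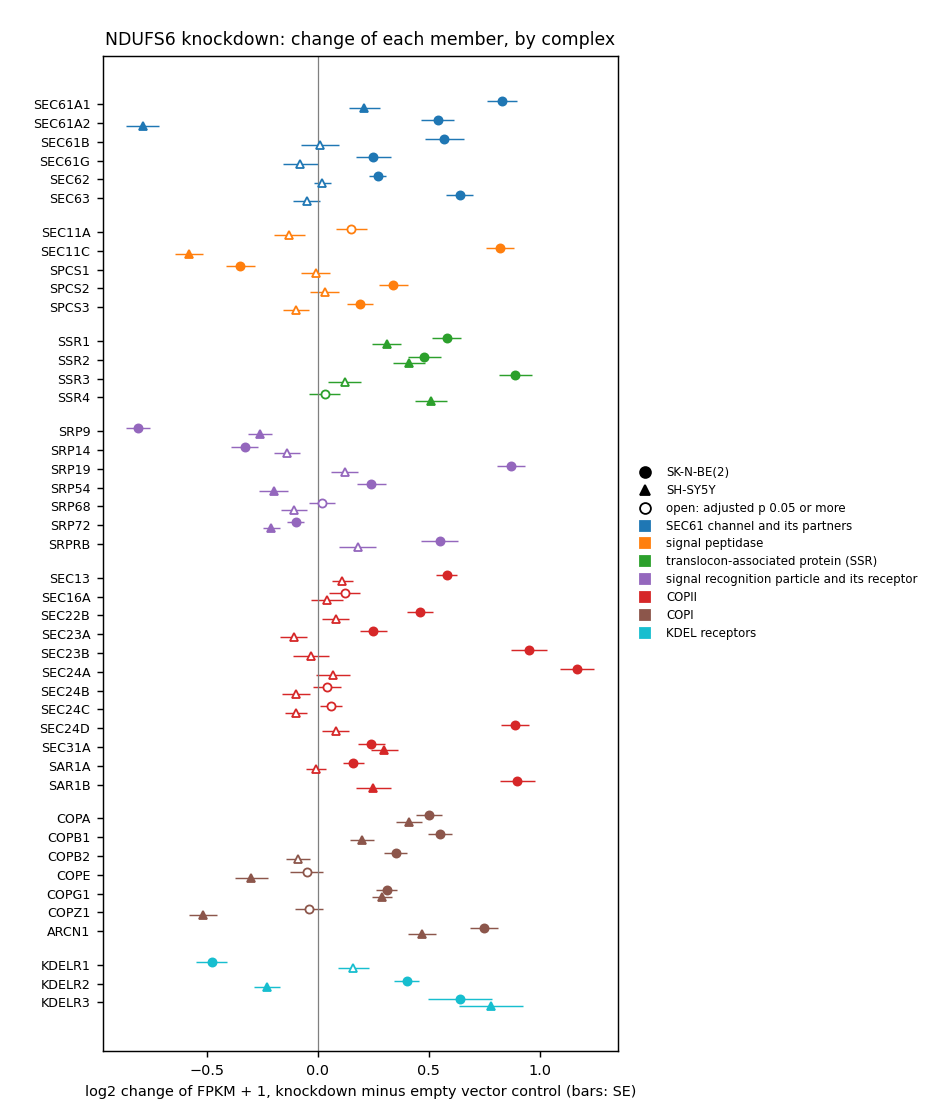
Change of each of the 44 genes in NDUFS6 knockdown, as log2(FPKM + 1), knockdown minus its own empty vector control (x axis), by complex (colours), in SK-N-BE(2) (circles) and SH-SY5Y (triangles). Bars are SE from the limma fit and open symbols have an adjusted p of 0.05 or more. SEC24A lies farthest to the right at 1.17 in SK-N-BE(2), and SRP9 farthest to the left of that line's genes at -0.81.

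In the channel, all 6 genes rose in SK-N-BE(2) knockdown. SEC61A1, the main pore-forming alpha subunit (hg38 chr3:128051641-128071683, plus strand), had 78.3, 57.8 and 60.3 FPKM in knockdown, against 36.2, 35.3 and 36.3 FPKM in controls (log2 0.83, SE 0.07, limma adjusted p = 2.53e-09). SEC63, which recruits the luminal chaperone BiP to the channel, had 35.3, 27.6 and 30.4 FPKM in knockdown, against 18.7, 19.7 and 20.2 FPKM in controls (0.64, SE 0.06, limma adjusted p = 2.7e-08). Knockdown library 1 was the highest for both genes, and no knockdown library reached down to a control. The less abundant alpha subunit SEC61A2 had 4.23, 4.26 and 4.2 FPKM in knockdown, against 2.64, 2.46 and 2.73 FPKM in controls (0.54, limma adjusted p = 3.84e-06). The beta subunit SEC61B rose by 0.57, the gamma subunit SEC61G by 0.25 and SEC62, a membrane partner of SEC63, by 0.27. The median of the 6 was 0.55.

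Signal peptidase did not move as a unit. SEC11A and SEC11C encode its alternative catalytic subunits, and the less abundant SEC11C had 3.9, 3.76 and 3.4 FPKM in knockdown, against 1.72, 1.48 and 1.76 FPKM in controls (log2 0.82, limma adjusted p = 1.1e-09). SEC11A had 19.0, 21.1 and 19.6 FPKM in knockdown, against 18, 17.1 and 18.4 FPKM in controls, a difference that was not called (0.15, SE 0.07, limma adjusted p = 0.079) although the libraries did not overlap. With values rescaled to a fixed sum per library (TPM), SEC11A passed the threshold (0.25, limma adjusted p = 0.00112), as it did with median-of-ratios scaling (0.18, limma adjusted p = 0.0423). The accessory subunit SPCS1 was lower, with 3.05, 3.27 and 2.83 FPKM in knockdown against 4.0, 4.16 and 4.29 FPKM in controls (-0.35, limma adjusted p = 0.000128). Exons of GLT8D1 and NEK4 on the opposite strand cover 58.1% of SPCS1 in GENCODE 29, and the sources do not state whether the counting used strand. SPCS2 (0.34) and SPCS3 (0.19), the other accessory subunits, both rose. SPCS2 is uncertain, because its pseudogenes SPCS2P1 to SPCS2P4 are listed beside it, the highest of them averaging 11.1 FPKM.

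Of the SSR complex, 3 of 4 genes rose. SSR3, its gamma subunit, had 77.4, 58.5 and 60.1 FPKM in knockdown, against 34.7, 33.8 and 35.1 FPKM in controls (log2 0.89, SE 0.07, limma adjusted p = 2.95e-09). SSR1, the alpha subunit, had 21.7, 16.7 and 17.4 FPKM in knockdown, against 12.0, 12.0 and 12.1 FPKM in controls (0.58, limma adjusted p = 2.13e-07). Both were well apart from their controls, and knockdown library 1 was again the highest. The beta subunit SSR2 rose by 0.48. The delta subunit SSR4 had 19.1, 21.3 and 17.7 FPKM in knockdown, against 19.0, 18.8 and 19.0 FPKM in controls, with overlapping groups (0.03, SE 0.07, limma adjusted p = 0.765).

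SRP was split by subunit. SRP19, which binds the SRP RNA and helps SRP54 onto it, had 6.88, 5.38 and 5.75 FPKM in knockdown, against 2.73, 2.76 and 3.0 FPKM in controls (log2 0.87, SE 0.06, limma adjusted p = 3.76e-10). SRP9, the most abundant transcript of the 44 (chr1:225777813-225790466, plus strand), had 93.7, 106 and 95.2 FPKM in knockdown, against 172, 171 and 175 FPKM in controls (-0.81, SE 0.05, limma adjusted p = 1.12e-10). These differences run in opposite directions with no overlap between knockdown and control libraries in either gene. SRP14, the partner of SRP9 in the Alu domain of the particle, was also lower (-0.33, limma adjusted p = 0.000119). SRP54, which binds the signal sequence, rose by 0.24, and SRPRB, the membrane subunit of the receptor, rose by 0.55. SRP72 was called lower by a small margin with overlapping groups (-0.10, limma adjusted p = 0.035), and its partner SRP68 had 0.02 and was not called. SRP9 is uncertain, because the near-identical pseudogene SRP9P1 averaged 61.5 FPKM in the table and the handling of reads matching both is not stated in the sources. Exons of AC008575.1 and ZRSR2P1 on the same strand cover 18.2% of SRP19.

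In COPII, 9 of 12 genes rose, 3 were not called and the median was 0.36. SEC24 proteins are the cargo-binding subunits of the inner coat, and the 4 human forms fell into pairs. SEC24A (chr5:134648789-134727823, plus strand), which holds the element in its printed promoter, had 12.6, 8.97 and 10.8 FPKM in knockdown, against 4.1, 4.27 and 4.18 FPKM in controls (log2 1.17, SE 0.08, limma adjusted p = 9.64e-11). SEC24D had 24.2, 19.0 and 22.5 FPKM in knockdown, against 10.9, 11.8 and 11.2 FPKM in controls (0.89, SE 0.06, limma adjusted p = 2.32e-10). Every knockdown library was above every control for both, and SEC24A had the largest change of the 44 genes. SEC24B, whose printed promoter lacks the element, had 10.0, 9.26 and 10.9 FPKM in knockdown, against 9.89, 9.25 and 10.2 FPKM in controls (0.04, SE 0.06, limma adjusted p = 0.661). SEC24C had 18.2, 15.4 and 17.1 FPKM in knockdown, against 16.1, 15.7 and 16.5 FPKM in controls (0.06, SE 0.05, limma adjusted p = 0.299). The groups overlapped in both. SEC24C passed the threshold under TPM scaling (0.16, limma adjusted p = 0.0285) and without knockdown library 2 (0.12, limma adjusted p = 0.0297), and a gene on the opposite strand covers 42.9% of its exons.

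The other COPII pairs were uneven as well. SEC23B, an inner coat subunit that activates the SAR1 GTPase, had 26.2, 18.6 and 20.5 FPKM in knockdown, against 10.9, 9.88 and 11.2 FPKM in controls (log2 0.95, SE 0.08, limma adjusted p = 4.8e-09). Its paralog SEC23A had 14.5, 13.1 and 13.5 FPKM in knockdown, against 10.9, 11.9 and 11.2 FPKM in controls (0.25, limma adjusted p = 0.00135). The groups were apart for both paralogs, and SEC23B had the larger difference. Of this pair SEC23A holds the element and SEC23B does not, the reverse of the order in SEC24A and SEC24B. SAR1B, a GTPase that starts coat assembly (chr5:134601144-134649271, minus strand), had 6.49, 4.86 and 5.27 FPKM in knockdown, against 2.3, 2.61 and 2.52 FPKM in controls (0.90, SE 0.08, limma adjusted p = 8.43e-09). SAR1A had 17.1, 17.5 and 17.3 FPKM in knockdown, against 15.8, 15 and 15.5 FPKM in controls (0.16, limma adjusted p = 0.00634). The SAR1A groups did not overlap either, and SAR1B had the larger difference. SAR1B and SEC24A are neighbours on opposite strands. At the outermost annotated start of SAR1B they overlap, by 3.5% of the exons of SAR1B and 5.3% of those of SEC24A. The promoter scanned for SAR1B belongs to another start, inside the gene as located here (bases before that start, chr5:134632829-134633078). The lack of the element in SAR1B therefore refers to that inner start only. Of the rest, SEC13 (0.58) and SEC31A (0.24), which build the outer cage, and SEC22B (0.46), a SNARE carried by the vesicles, rose. The exit-site scaffold SEC16A (0.12, limma adjusted p = 0.153) was not called.

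Within a library, the ratio of paralogs is little affected by the scaling between libraries. The log2 ratio of FPKM + 1 was taken for all 13 pairs in the 6 families. It is given as a description, with no test, since the families were chosen with the changes of their members known. In SK-N-BE(2) these ratios of knockdown and control libraries did not overlap in 11 pairs. They overlapped for SEC24C to SEC24B, which moved by 0.03, and for KDELR3 to KDELR2, which moved by 0.25. The added 1 weighs on pairs with a gene of few FPKM. Without it, the FPKM given per library did not overlap in ratio for KDELR3 to KDELR2 and overlapped for SEC61A1 to SEC61A2. The ratio of SEC24A to SEC24B was 0.08 ± 0.19 in knockdown and -1.06 ± 0.0834 in controls on the log2 scale, and that of SEC24A to SEC24C was -0.61 ± 0.108 in knockdown and -1.72 ± 0.0498 in controls (SD, n = 3 each). SEC24A and SEC24B were thus near equal per length in knockdown, whereas SEC24A was the lower of them in controls. The ratio moved by 1.12 for KDELR3 to KDELR1, 0.88 for KDELR2 to KDELR1, 0.86 for SEC24D to SEC24B, 0.83 for SEC24D to SEC24C, 0.75 for SAR1B to SAR1A, 0.70 for SEC23B to SEC23A, 0.67 for SEC11C to SEC11A, 0.30 for SEC61A1 to SEC61A2 and 0.28 for SEC24A to SEC24D.

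In SH-SY5Y knockdown the ratios of FPKM + 1 also did not overlap in 11 of the 13 pairs, with other sizes. In both lines the pairs share genes. The share of other gene pairs without overlap was not computed, so these counts have no background. The ratio moved by 1.0 for KDELR3 to KDELR2 and for SEC61A1 to SEC61A2, by 0.62 for KDELR3 to KDELR1, by 0.26 for SAR1B to SAR1A and by 0.08 for SEC23B to SEC23A. It moved by 0.17 or 0.18 for SEC24A and SEC24D over SEC24B and SEC24C, by -0.01 for SEC24A to SEC24D and by 0.01 for SEC24C to SEC24B. The ratios of SEC11C to SEC11A (-0.45) and of KDELR2 to KDELR1 (-0.39) moved opposite to SK-N-BE(2).

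**Figure D2:**
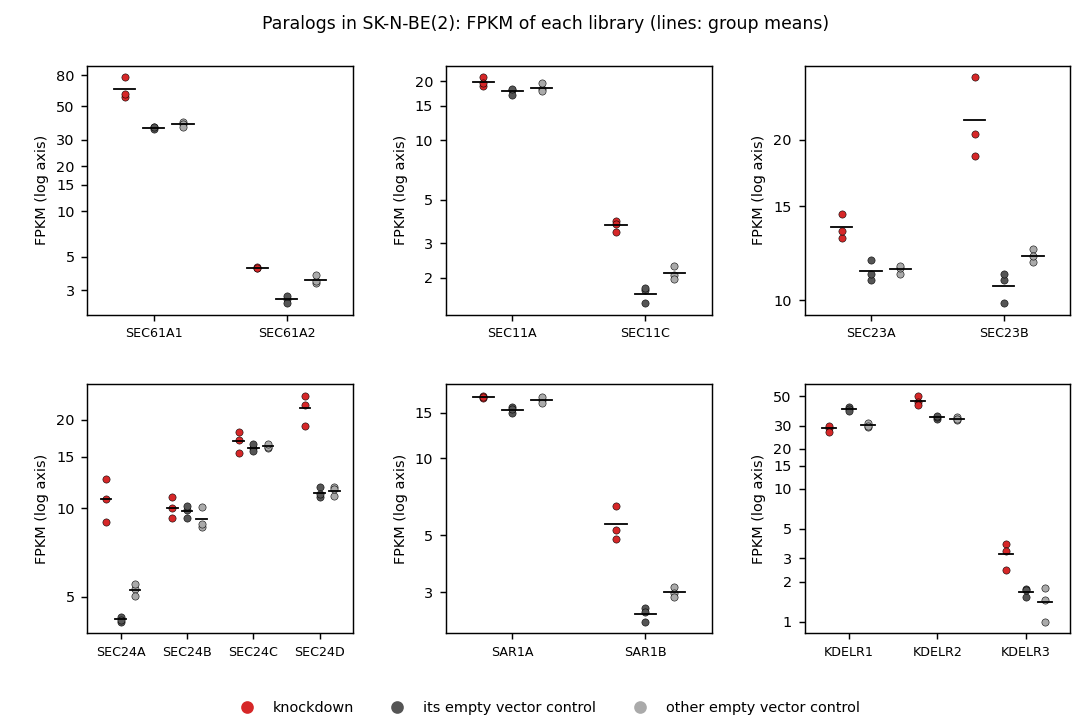
FPKM (log axis) of each SK-N-BE(2) library for 6 paralog families, in NDUFS6 knockdown (red), its empty vector control (dark grey) and the empty vector of the overexpression construct (light grey), with lines at the group means. SEC24A and SEC24D stand above both controls in all 3 knockdown libraries, while SEC24B and SEC24C overlap their own control. KDELR1 in knockdown lies below its own control and beside the other one.

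In COPI, 5 of 7 genes rose. ARCN1, the delta subunit of the coat, had 98.5, 78.2 and 88.2 FPKM in knockdown, against 51.6, 51.9 and 52.1 FPKM in controls (log2 0.75, SE 0.06, limma adjusted p = 3.77e-09). COPB1, the beta subunit, had 47.9, 41.3 and 41.0 FPKM in knockdown, against 28.8, 29.6 and 29.2 FPKM in controls (0.55, SE 0.05, limma adjusted p = 4.18e-08). The control libraries of both lay close together and below every knockdown library. The alpha subunit COPA rose by 0.50, the beta-prime subunit COPB2 by 0.35 and the gamma subunit COPG1 by 0.31. The epsilon subunit COPE (-0.05) and the zeta subunit COPZ1 (-0.04) were not called, and their groups overlapped.

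The 3 KDEL receptors moved apart. KDELR3, the least abundant, had 3.83, 3.39 and 2.45 FPKM in knockdown, against 1.76, 1.53 and 1.74 FPKM in controls (log2 0.64, SE 0.15, limma adjusted p = 0.000799). KDELR2 had 50.4, 45.1 and 42.9 FPKM in knockdown, against 33.4, 35.0 and 35.6 FPKM in controls (0.40, SE 0.06, limma adjusted p = 5.74e-06). KDELR1 (chr19:48382570-48391553, minus strand) had 28.9, 29.7 and 26.9 FPKM in knockdown, against 41.7, 39.7 and 38.7 FPKM in controls (-0.48, SE 0.07, limma adjusted p = 7.52e-06). KDELR1 was thus below its controls and the other receptors above theirs, while their sum was 77.8 ± 5.45 FPKM in knockdown and 76.4 ± 0.442 FPKM in controls (SD, n = 3 each). The fall of KDELR1 was seen against its own control only. The other SK-N-BE(2) empty vector had 29.3, 31.6 and 29.6 FPKM of KDELR1, against which knockdown differed by -0.08 (limma adjusted p = 0.382).

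The choice of empty vector was checked for every gene. Against the empty vector of the overexpression construct, 30 genes were higher and 3 lower in SK-N-BE(2) knockdown, with a median of 0.27, while 22.5% of all tested genes were called higher and 25.2% lower. Of the 31 genes that rose against the knockdown's own control, 29 also rose against the other. SAR1A (0.04, limma adjusted p = 0.538) and SEC31A (0.05, limma adjusted p = 0.509) did not. Of the 5 that fell, SRP9 (-0.72), SRP14 (-0.28) and SPCS1 (-0.17) fell against both, and KDELR1 and SRP72 (0.01) did not. SEC24A differed by 0.89, SSR3 by 0.94, SEC24D by 0.87, SEC23B by 0.78, SEC61A1 by 0.76, SRP19 and SAR1B by 0.70 each and KDELR3 by 0.81 against the other control. SEC13 shrank to 0.12, SEC61A2 to 0.21 and COPA to 0.16, and all 3 were still called. The empty vectors of the line differed from each other in 17 of the 44 genes, with 4 higher and 13 lower in the vector of the knockdown construct, while 15.5% of all tested genes were called higher and 19% lower. SEC13 (-0.46), ARCN1 (-0.37), COPA (-0.34), SEC61A2 (-0.33) and SEC61B (-0.32) were among those lower in the knockdown's vector, and KDELR1 (0.40) and SRP68 (0.30) among those higher. Without filter on low values this count was 2 higher and 7 lower, and leaving out 1 library gave 2 to 3 higher and 6 to 10 lower.

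**Figure D3:**
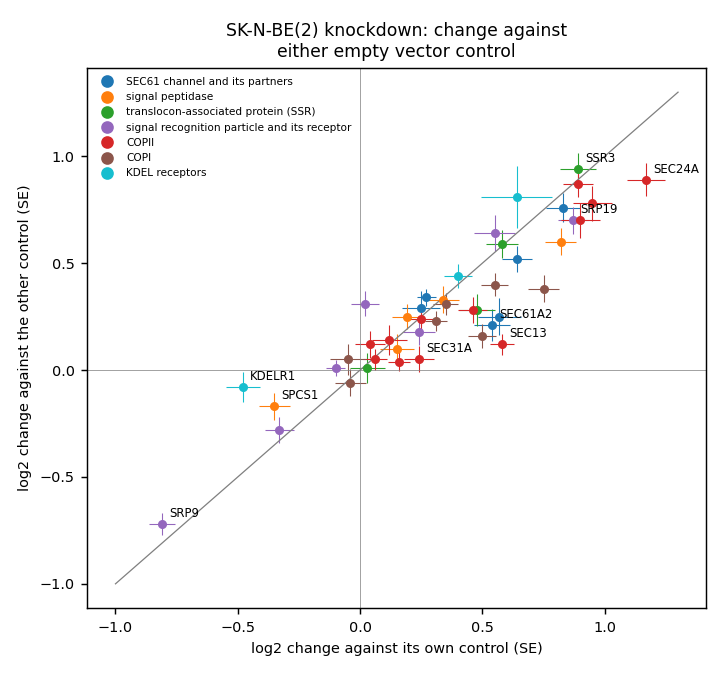
Change of the 44 genes in SK-N-BE(2) knockdown against its own empty vector (x axis) and against the empty vector of the overexpression construct (y axis), in log2(FPKM + 1), with SE bars and a line of equal change. Both axes share the knockdown libraries. SEC24A (1.17 and 0.89) and SSR3 (0.89 and 0.94) lie far up and to the right, while KDELR1 (-0.48 and -0.08) lies off the line.

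Genes with and without the element in their promoter overlapped in response. In SK-N-BE(2) knockdown, 8 of the 9 genes with it rose, all but SEC16A, with a median log2 difference of 0.50. Of the 32 without it, 21 rose and 4 fell, with a median of 0.28, while 27.4% of all tested genes were called higher and 28.3% lower. SSR3, SEC23B and SEC61A1 rose by 0.83 or more and have no match in their windows. In SH-SY5Y knockdown, 3 of the 9 with it rose, with a median of 0.07, and of the 32 without it 8 rose and 7 fell, with a median of -0.02. Both shares of rises in SH-SY5Y were near the 26.3% of all tested genes called higher there, where 29.6% were called lower.

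In SH-SY5Y, NDUFS6 knockdown moved fewer of these genes and in both directions. Of the 44, 11 rose and 8 fell, with a median of 0.01, while 26.3% of all tested genes were called higher and 29.6% lower. The share that rose was thus near that of all tested genes, and the share that fell was below it in this fit, though not under the other settings given below. The 11 higher genes were 4 COPI subunits (ARCN1 at 0.47, COPA at 0.41, COPG1 at 0.29 and COPB1 at 0.20), 3 SSR genes (SSR4, SSR2 at 0.41 and SSR1 at 0.31), SEC31A (0.30), SAR1B (0.25), SEC61A1 (0.21) and KDELR3. KDELR3 had 5.09, 4.83 and 5.82 FPKM in knockdown, against 3.35, 2.81 and 1.91 FPKM in controls (log2 0.78, SE 0.15, limma adjusted p = 0.000119). SSR4 had 14.8, 15.2 and 15.3 FPKM in knockdown, against 9.98, 10.6 and 10.4 FPKM in controls (0.51, SE 0.07, limma adjusted p = 3.87e-06). In both genes the knockdown libraries were all above the controls, and the KDELR3 controls were spread widely. Against the other SH-SY5Y empty vector, which had 0.676, 0.788 and 0.988 FPKM of KDELR3, the difference was 1.78. Mesenchymal markers summed to 503 to 525 FPKM in this knockdown, against 142 to 149 FPKM in its controls. Of the 6, 6 averaged 1 FPKM or more in knockdown, PRRX1 only just, and 5 in controls. VIM gave most of the sum (445 FPKM in knockdown against 96.4 FPKM in controls). FN1 was near level (42.1 against 41.7 FPKM), and SNAI2, YAP1, CD44 and PRRX1 had higher means in knockdown. The fibroblast and stroma markers summed to 227 to 239 FPKM in knockdown, with 5 of 6 at 1 FPKM or more, against 95.8 to 99.2 FPKM in controls, with 4 of 6, and their part in the results was not tested.

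Among the 8 lower genes were SEC61A2, SEC11C, KDELR2 and SRP54, which had risen in SK-N-BE(2). SEC61A2 had 6.23, 5.91 and 6.07 FPKM in SH-SY5Y knockdown, against 10.5, 10.9 and 12.3 FPKM in controls (log2 -0.79, SE 0.07, limma adjusted p = 1.53e-08). SEC11C had 2.33, 2.63 and 2.74 FPKM in knockdown, against 4.23, 4.25 and 4.47 FPKM in controls (-0.58, SE 0.06, limma adjusted p = 1.51e-07). No knockdown library of either gene reached its controls, also with the other empty vector as reference (-0.63 and -0.68). The zeta and epsilon COPI subunits COPZ1 (-0.52) and COPE (-0.30) fell while 4 of their coat partners rose. SRP9 (-0.26), KDELR2 (-0.23), SRP72 (-0.21) and SRP54 (-0.20) were the other genes that fell. Against the other control, all 11 higher genes and 7 of the 8 lower ones, all but SRP54, were called the same way, and the counts were 17 higher and 12 lower, while 26.5% of all tested genes were called higher and 31.7% lower. With TPM scaling 17 genes were lower, and 14 with only the groups compared in the fit.

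Side by side, 10 genes rose in both knockdowns. These were ARCN1, COPA, COPB1, COPG1, KDELR3, SAR1B, SEC31A, SEC61A1, SSR1 and SSR2. SRP9 and SRP72 fell in both. KDELR2, SEC11C, SEC61A2 and SRP54 rose in SK-N-BE(2) and fell in SH-SY5Y, and 17 genes that rose in SK-N-BE(2), SEC24A, SEC24D, SEC23B, SSR3, SRP19 and SEC63 among them, were not called in SH-SY5Y. The matching counts over all tested genes were not taken, so these crossed counts have no background. The difference between the lines was tested itself, as the knockdown change in SK-N-BE(2) minus that in SH-SY5Y. It was called for 32 genes, 28 higher and 4 lower in SK-N-BE(2), with limma adjusted p between 6.91e-11 and 0.0348, while 29.5% of all tested genes were called higher and 26.3% lower. The largest were SEC11C (1.40, limma adjusted p = 6.91e-11), SEC61A2 (1.33, limma adjusted p = 1.53e-09) and SEC24A (1.10, limma adjusted p = 3.92e-08). KDELR1 (-0.64), SRP9 (-0.55), SSR4 (-0.48) and SPCS1 (-0.33) were the 4 lower. With each line's other empty vector 24 genes were called higher and 5 lower, while 28% of all tested genes were called higher and 25.6% lower, and 20 of the 28 higher and 3 of the 4 lower were called the same way. ARCN1, COPB1, SEC11A, SEC13, SEC22B, SEC23A, SPCS3, SSR1 and SPCS1 were not, and SEC13 (-0.02) and SSR1 (-0.02) then changed sign. For SEC24A, the SK-N-BE(2) knockdown libraries held 8.97 to 12.6 FPKM and those of SH-SY5Y 4.54 to 5.11 FPKM, where the knockdown controls of both lines held 4.1 to 4.82 FPKM. The lines also differed without knockdown: over the empty vector libraries, SEC61A2 (-1.51), SPCS1 (-1.11) and SEC11C (-0.94) were lower in SK-N-BE(2) than in SH-SY5Y, and SEC23A (0.94), SSR4 (0.86), ARCN1 (0.85) and SRPRB (0.85) were higher, among 21 genes higher and 15 lower, while 33.5% of all tested genes were called higher and 43.8% lower. Scaling to TPM shifted the median of all genes by 0.15 in the knockdown difference between lines. Of the 44 genes 36 were then called higher and 3 lower, while 6288 of the 15902 tested genes were called higher and 2758 lower.

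**Figure D4:**
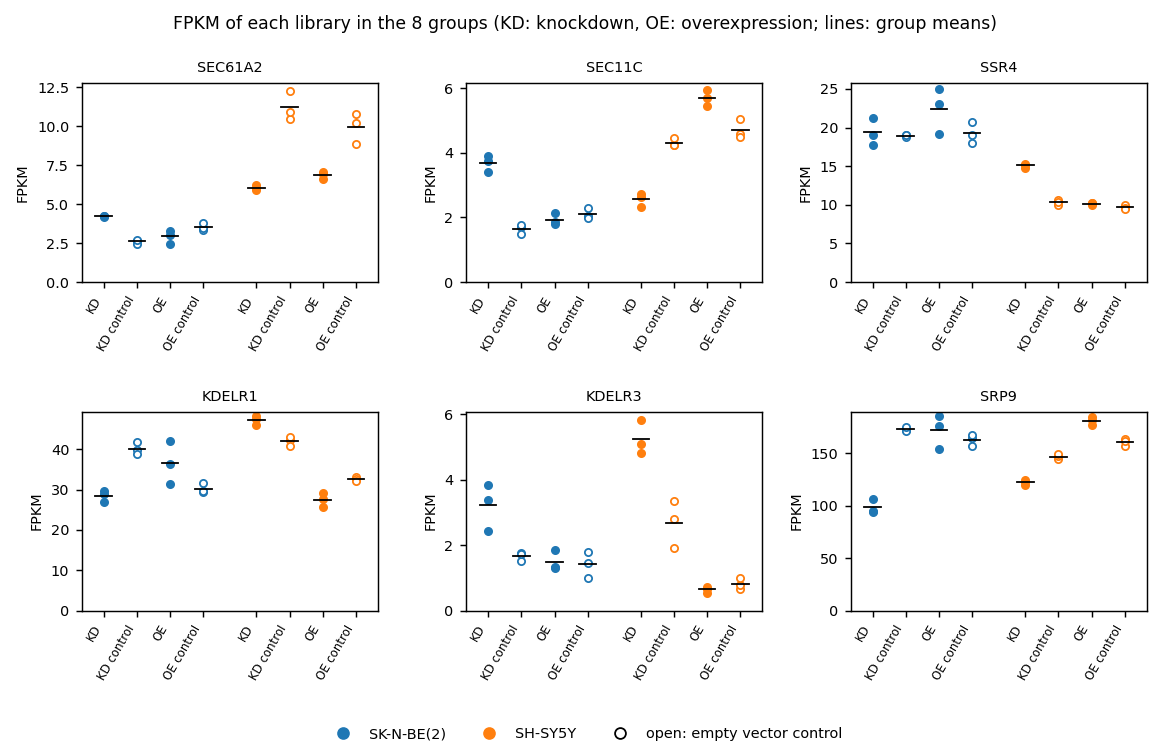
FPKM of every library in the 8 groups for 6 genes, SK-N-BE(2) in blue and SH-SY5Y in orange, with open circles for empty vector controls and lines at group means. SEC61A2 and SEC11C stand above their own control in SK-N-BE(2) knockdown and below it in SH-SY5Y knockdown. SRP9 is below its own control in both knockdowns.

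Overexpression of NDUFS6 in SK-N-BE(2), where NDUFS6 itself was only 1.34-fold its control, moved few of these genes. Of the 44, 6 were called higher and 6 lower, with a median of -0.03, while 12.9% of all tested genes were called higher and 16.8% lower. Both shares were thus near those of all tested genes. SEC61G had 17, 21.4 and 19.8 FPKM with overexpression, against 16.2, 15 and 14.7 FPKM in controls (log2 0.32, SE 0.08, limma adjusted p = 0.00496). SPCS1 had 4.24, 4.73 and 4.69 FPKM with overexpression, against 3.54, 3.86 and 3.31 FPKM in controls (0.28, SE 0.06, limma adjusted p = 0.00324). Both were higher in all 3 libraries. SPCS3 had 19.1, 17 and 18.5 FPKM with overexpression, against 22.9, 23.0 and 24.5 FPKM in controls (-0.35, SE 0.06, limma adjusted p = 0.000224). SEC16A had 9.3, 7.88 and 8.79 FPKM with overexpression, against 10.3, 9.98 and 11.1 FPKM in controls (-0.25, SE 0.07, limma adjusted p = 0.0138). Both were lower in all 3 libraries. COPZ1 (0.25), KDELR1 (0.27), SSR2 (0.24) and SSR4 (0.20) were also called higher, the last 3 with overlapping groups, and SEC61A2 (-0.21), SAR1A (-0.18), SEC23A (-0.18) and SEC62 (-0.15) lower.

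These calls were unstable. With only the groups compared in the limma fit, 0 genes were called higher (5 at an unadjusted p under 0.05) and 1 lower, and the limma adjusted p was 0.0823 for SEC61G, 0.0678 for SPCS1 and 0.0952 for SEC16A. Without overexpression library 2 the counts were 3 higher and 3 lower, without overexpression library 1 there were 11 lower, and without control library 3 there were 3 lower. SEC16A was not called without overexpression library 2 (-0.19, limma adjusted p = 0.0937) or control library 3 (-0.21, limma adjusted p = 0.0736). Against the other empty vector 10 genes were higher and 8 lower, while 20.3% of all tested genes were called higher and 20% lower, and SPCS1 was not called (0.11, limma adjusted p = 0.199). Knockdown and overexpression were called in opposite directions in 7 genes of the line and in the same direction in 2, SEC61G and SSR2, which were higher under both, each against its own control. SAR1A, SEC23A, SEC61A2, SEC62 and SPCS3 were higher in knockdown and lower with overexpression, and KDELR1 and SPCS1 were lower in knockdown and higher with overexpression. How many of all tested genes were called in the same or opposite directions was not counted. Against the other empty vector, 4 of the 7 (SAR1A, SEC61A2, KDELR1 and SPCS1) lost the overexpression call, and SAR1A and KDELR1 lost the knockdown call as well.

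In SH-SY5Y, where overexpression raised NDUFS6 19.0-fold, 11 of the 44 genes were higher and 2 lower, with a median of 0.08, while 15.4% of all tested genes were called higher and 17.2% lower. SRPRB had 7.1, 7.39 and 6.58 FPKM with overexpression, against 4.85, 5.22 and 6.0 FPKM in controls (log2 0.34, SE 0.08, limma adjusted p = 0.00389). SPCS2 had 24.7, 23.2 and 26.0 FPKM with overexpression, against 20.8, 20.6 and 19.5 FPKM in controls (0.27, SE 0.06, limma adjusted p = 0.0032). Neither gene's groups overlapped, and SPCS2 is uncertain for the pseudogenes named above. SEC61A2 had 6.95, 6.61 and 7.04 FPKM with overexpression, against 8.84, 10.8 and 10.2 FPKM in controls (-0.47, SE 0.07, limma adjusted p = 5.69e-05), so that it was lower than its own control under both constructs in this line. KDELR1 had 27.6, 25.8 and 29.1 FPKM with overexpression, against 33.2, 32.6 and 32.2 FPKM in controls (-0.24, limma adjusted p = 0.0115), and was not called without overexpression library 2 (-0.20, limma adjusted p = 0.0642). The other higher genes, SEC62, SEC11C, SEC61A1, ARCN1, SEC24C, SEC31A, SRP9, SEC13 and SRP72, lay between 0.10 and 0.24. Leaving out any 1 of the 3 control libraries left 7, 6 and 7 genes higher, and without overexpression library 2 there was 1 lower. Against the other SH-SY5Y empty vector 13 genes were higher and 9 lower with overexpression, while 26.5% of all tested genes were called higher and 28.9% lower. In this line 3 genes (SEC11C, SRP9 and SRP72) were lower in knockdown and higher with overexpression, 3 (ARCN1, SEC31A and SEC61A1) were higher under both and SEC61A2 was lower under both. Here too the matching counts over all tested genes were not taken. Overexpression differed between the lines, SK-N-BE(2) minus SH-SY5Y, in 16 genes, 3 higher and 13 lower, with limma adjusted p between 1.48e-05 and 0.0404, while 18.3% of all tested genes were called higher and 18.5% lower. Without SK-N-BE(2) overexpression library 1 there were 6 higher, and without SH-SY5Y overexpression library 3 there were 5. With each line's other empty vector there were 13 higher and 11 lower, while 27.7% of all tested genes were called higher and 25.5% lower. Of the genes called with the own controls, 2 of the 3 higher and 8 of the 13 lower were then called the same way. The empty vectors of SH-SY5Y differed in 11 genes higher and 5 lower in the vector of the knockdown construct, while 18.4% of all tested genes were called higher and 17.8% lower. KDELR3 differed most, with a mean of 2.69 FPKM in the knockdown's vector and 0.817 FPKM in the other (log2 1.0, limma adjusted p = 1.69e-05), and leaving out 1 library gave 3 to 4 lower.

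Beyond the 44, a list of 83 other genes of the same route was examined, of which 82 were tested. Their differences are given against each knockdown's own empty vector only, and those against the other empty vector are not given here. In SK-N-BE(2) knockdown 45 were higher and 12 lower, with a median of 0.20, while 27.4% of all tested genes were called higher and 28.3% lower. In SH-SY5Y knockdown 37 were higher and 14 lower, with a median of 0.12, while 26.3% of all tested genes were called higher and 29.6% lower. In SK-N-BE(2) knockdown the p24 proteins and cargo receptors gave 12 higher and 2 lower of 19, and the ER-Golgi tethers and SNAREs 11 and 2 of 16. The oligosaccharyltransferase gave 7 and 2 of 12, exit-site organisers and ARF machinery 7 and 2 of 11, further subunits and paralogs 4 and 1 of 7, the ER membrane protein complex 3 and 1 of 10, and tail-anchored protein insertion 1 and 2 of 7. The share of higher genes in the ER membrane protein complex was near that of all tested genes. TMED7, a p24 cargo receptor, averaged 50.5 ± 7.14 FPKM in knockdown and 15.6 ± 0.865 FPKM in controls (log2 1.62, limma adjusted p = 6.72e-14, n = 3 each). A read-through transcript with TICAM2 covers 24% of its exons. The oligosaccharyltransferase subunit MAGT1 (1.10), ARFGAP3, a GTPase-activating protein for ARF1 (1.04), TRAM1, a membrane protein next to the channel (0.89), and the SNARE BNIP1 (0.76) were the largest rises of their lists. EMC10, a subunit of the ER membrane protein complex, averaged 0.818 ± 0.136 FPKM in knockdown and 4.64 ± 0.0902 FPKM in controls (-1.64, limma adjusted p = 3.81e-14, n = 3 each). Its fall was the largest among the 82 genes, while EMC7 of the same complex rose by 0.57. In SH-SY5Y knockdown the p24 protein TMED5 (-0.73) and the small GTPase gene ARF3 (-0.57) had the largest falls of their lists, and ERGIC2, a cargo receptor component, rose by 0.54.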

How the data were processed

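The authors deposited FPKM values per gene. Per the labels' protocols, TRIzol RNA was made into strand-specific TruSeq libraries, and the submitters' processing notes name FastQC 0.11.2, STAR, StringTie 1.3.1c and hg38. Read numbers, counting settings and annotation release are not stated in these sources. Sequencing depth is therefore unknown, and the spread between libraries sets the precision. The 15903 genes that reached 1 FPKM in 3 or more libraries were tested on log2(FPKM + 1) with limma 3.58.1 in R 4.3.3, all 24 libraries in 1 model of 8 groups (16 residual degrees of freedom), with trend and robust moderation. In data simulated for the SK-N-BE(2) knockdown over 15903 genes, of which 200 were changed, 87% of changes of log2 0.5 were recovered. There 11 unchanged genes were called. The changed genes were drawn from those with higher control levels, and normal noise with the same spread in every group was used. In the real comparison 8854 of 15902 genes were called, so recovery there may differ. NDUFS6 was left out of counts over all tested genes. Exon overlaps, including those with other genes on the same strand, came from GENCODE 29, promoters from RefSeq. Per-library values are given for the 2 genes with the largest change per complex in SK-N-BE(2) knockdown, the 2 largest called rises and falls in each other comparison, and paralog families. Members and lists were chosen with earlier results of these data known. Alternatives were a pseudocount of 0.1, filters on low values, TPM and median-of-ratios scaling, a replicate block, plain moderation, only the groups compared, the other empty vector and leaving out each library.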

Additional observations from a re-analysis of the deposited data

Results flagged for a closer look

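The knockdown change differed between the lines in 32 of the 44 genes, by limma's test of the difference itself (log2, SK-N-BE(2) minus SH-SY5Y). In the SEC61 group it was 0.63 for SEC61A1, 1.33 for SEC61A2, 0.57 for SEC61B, 0.33 for SEC61G, 0.24 for SEC62 and 0.68 for SEC63. Signal peptidase had 0.28 for SEC11A, 1.40 for SEC11C, -0.33 for SPCS1, 0.31 for SPCS2 and 0.29 for SPCS3, and the SSR complex 0.27 for SSR1, 0.77 for SSR3 and -0.48 for SSR4. In SRP and its receptor it was -0.55 for SRP9, 0.74 for SRP19, 0.44 for SRP54 and 0.37 for SRPRB. COPII had 0.47 for SEC13, 0.38 for SEC22B, 0.36 for SEC23A, 0.98 for SEC23B, 1.10 for SEC24A, 0.82 for SEC24D, 0.17 for SAR1A and 0.66 for SAR1B. COPI had 0.35 for COPB1, 0.44 for COPB2, 0.48 for COPZ1 and 0.28 for ARCN1, and the KDEL receptors -0.64 for KDELR1 and 0.63 for KDELR2. With each line's other empty vector, 9 of these 32 were not called: ARCN1 (0.11), COPB1 (0.15), SEC11A (0.20), SEC13 (-0.02), SEC22B (0.04), SEC23A (0.13), SPCS1 (-0.10), SPCS3 (0.09) and SSR1 (-0.02).

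The overexpression change differed between the lines in 16 genes by the same test. It was higher in SK-N-BE(2) for KDELR1 (0.51), SEC61G (0.30) and COPZ1 (0.30). It was lower there for SPCS3 (-0.47), SEC62 (-0.40), SRPRB (-0.39), SEC16A (-0.35), SSR1 (-0.32), ARCN1 (-0.32), SEC61A1 (-0.31), SEC11C (-0.31), SEC31A (-0.31), SEC24C (-0.30), SAR1A (-0.29), SPCS2 (-0.27) and KDELR2 (-0.22). With each line's other empty vector, SEC61G (0.21), ARCN1 (-0.14), SEC11C (-0.19), SEC61A1 (-0.20), SSR1 (-0.04) and SEC31A (0.06, the sign turned) were not called. NDUFS6 itself was at 1.34-fold its control in SK-N-BE(2) and at 19.0-fold in SH-SY5Y.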

How the results depend on the processing

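For the genes given per library, 558 values under other settings kept direction and side of the threshold, 15 no longer passed it and 4 newly did. The 2 that turned were SEC24B in SK-N-BE(2) knockdown, never called, without knockdown library 3 (-0.02) and without control library 2 (-0.0), in a range of -0.02 to 0.09 over the left-out libraries. Counts (higher or lower) that moved by over 1.5 times were as follows; the cause was not tested. With the other empty vector, SK-N-BE(2) knockdown had 3 lower, SK-N-BE(2) overexpression 10 higher, SH-SY5Y knockdown 17 higher, SH-SY5Y overexpression 9 lower and overexpression between lines 13 higher. With only the groups compared, SK-N-BE(2) overexpression had 0 higher by limma (5 at an unadjusted p under 0.05) and 1 lower, SH-SY5Y knockdown 14 lower and the SH-SY5Y controls 9 lower. Over the 15902 tested genes the adjusted counts were, in that order, 543, 423, 4855 and 3334. With TPM, SK-N-BE(2) overexpression had 14 lower, SH-SY5Y knockdown 17 lower and the SK-N-BE(2) controls 2 higher. Over the 15902 tested genes these were, in that order, 3405, 5760 and 1541. Without a filter on low values, SH-SY5Y overexpression had 7 higher, the SK-N-BE(2) controls 2 higher and 7 lower, and the SH-SY5Y controls 3 lower. Over the 43263 genes then tested these were, in that order, 2248, 2411, 2894 and 2713. Median-of-ratios scaling left 8 lower between the SK-N-BE(2) controls. Leaving out 1 library gave 3 to 9 higher and 3 to 11 lower in SK-N-BE(2) overexpression, 6 to 8 higher and 1 to 2 lower in SH-SY5Y overexpression, 2 to 6 higher for overexpression between lines, 2 to 3 higher and 6 to 10 lower between the SK-N-BE(2) controls, and 3 to 4 lower between the SH-SY5Y controls. In SK-N-BE(2) knockdown it gave 30 to 32 higher and 4 to 5 lower.

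Deviations of same-numbered construct and control libraries correlated at 0.37 and 0.141 for libraries 2 and 1 of SK-N-BE(2) overexpression. In all other pairs the correlation was -0.076 to 0.031. Whether the numbers mark pairs cannot be decided from these values. The replicate block gave 31 higher and 5 lower in SK-N-BE(2) knockdown and moved no count by over 1.5 times. TPM moved the share of higher among all called genes to 60.8%, against 49.3% as reported, in SK-N-BE(2) knockdown, to 32.2% against 43.4% in SK-N-BE(2) overexpression (53.8% with median-of-ratios scaling), to 35.8% against 47.0% in SH-SY5Y knockdown, to 69.5% against 52.8% for knockdown between lines, to 38.1% against 49.8% for overexpression between lines and to 25.0% against 45.1% between the SK-N-BE(2) controls.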
